A study of Mus musculus with 9 samples.

Results

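Protein A/G beads without antibody (control IP) held RNA from the lysate of LPS-treated RAW264.7 cells, and that RNA was compared with the RNA of the lysate itself (input). The comparison was between 6 of the 9 libraries of the series, 3 of control IP and 3 of input. It took every row of the count table that carries a gene symbol (20467 rows). Of these, 9567 passed the read filter, which was run on all 9 libraries. In the median, mRNAs rich in G and C were higher in the bead libraries than in input, and mRNAs rich in A and U were lower. This held in each of the 3 replicate pairs.

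RAW264.7 is an established mouse macrophage line. All groups received lipopolysaccharide (LPS, a bacterial cell wall component) at 100 ng/ml for 2 h and were lysed mechanically. For control IP the lysate met protein A/G beads alone, and for input the RNA was isolated before any IP. For Roquin IP, rabbit polyclonal antibodies to Roquin were used with the beads. The Roquin IP libraries entered the read filter, the scaling and the fits, including the estimate of the spread. The replicates are biological per the series' design text. All come from 1 cell line, and the control carries no antibody of any kind, so it measures RNA held by the beads and not by unspecific immunoglobulin.

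In an immunoprecipitation, RNA also reaches the pellet without the antibody's target: it can adhere to the bead surface or to proteins that adhere to it, and wash steps remove it only in part. A beads-only control measures that background, and the lysate measures what was there to be retained. Levels within each library are relative, so a gene can be higher on the beads by share while less of its RNA is present than in the lysate.

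The totals were 2929537, 4180549 and 8466096 counts in control IP and 2122288, 2055795 and 1799390 in input. Levels are in CPM, computed over the library size times its TMM factor, which aligns the bulk of genes between libraries, and differences are log2 fold changes of control IP over input. A count of 0 allows up to 3 counts, or 0.258 to 0.914 CPM in control IP and 1.19 to 1.49 CPM in input. These limits and all counting errors take each read as an independent molecule, which PCR copies are not. Replicate 1 of each group stood apart: the Pearson correlation of log2 CPM over the genes tested, given as a description, was 0.844 and 0.821 for control IP 1 against the other two but 0.944 between those, and 0.839, 0.828 and 0.909 for the input libraries. Lars2, the mitochondrial leucyl-tRNA synthetase gene, took a mean of 35.2% of the counts in control IP and 37.5% in input, and whether these reads come from the Lars2 mRNA could not be settled from the table.

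To show the base composition that the results turn on, a stretch of coding sequence is shown from 3 of the highest and the 3 lowest named genes that had reads in all 6 libraries. Each stretch is the one of 60 bases, in frame, whose GC content (the share of G and C bases) is nearest to that of the whole coding sequence. G and C are in capitals, the strand is that of the mRNA, and the sequences are from GENCODE M21 (GRCm38). Tmem160, Gemin7 and Ppm1m were higher on the beads, and Clk1, Esf1 and Hmgn5 were lower.
Tmem160: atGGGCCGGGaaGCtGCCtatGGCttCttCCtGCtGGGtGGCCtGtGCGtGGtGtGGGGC
Gemin7: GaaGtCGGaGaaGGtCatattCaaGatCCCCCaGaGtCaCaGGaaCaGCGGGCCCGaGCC
Ppm1m: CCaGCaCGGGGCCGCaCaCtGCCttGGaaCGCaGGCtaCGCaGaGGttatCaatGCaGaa
Clk1: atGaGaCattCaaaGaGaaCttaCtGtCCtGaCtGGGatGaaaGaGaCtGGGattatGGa
Esf1: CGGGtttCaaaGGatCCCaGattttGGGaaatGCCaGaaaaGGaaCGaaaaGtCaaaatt
Hmgn5: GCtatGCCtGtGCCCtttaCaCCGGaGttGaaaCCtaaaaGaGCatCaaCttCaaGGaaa

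G and C made up 40, 35 and 36 of the 60 bases in the stretches from Tmem160, Gemin7 and Ppm1m, and 25, 24 and 27 in those from Clk1, Esf1 and Hmgn5. The stretches span coding bases 280 to 339 of 567 in Tmem160 (chr7:16452779-16455494, plus strand), 115 to 174 of 390 in Gemin7 (chr7:19564946-19577595, minus strand) and 181 to 240 of 1389 in Ppm1m (chr9:106194947-106199746, minus strand). They span bases 1 to 60 of 1452 in Clk1 (chr1:58410189-58424066, minus strand), 43 to 102 of 2538 in Esf1 (chr2:140119883-140170564, minus strand) and 67 to 126 of 1221 in Hmgn5 (chrX:109004534-109013404, minus strand). The intervals are those of the whole genes.

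Of the 9567 genes tested, edgeR's quasi-likelihood test over all 9 libraries called 78 higher on the beads (0.815% of the genes tested) and 29 lower (0.303%) at a Benjamini-Hochberg adjusted p under 0.05. All of them differed by at least 2-fold, and their median log2 fold changes were 1.74 and -1.50. The libraries of equal replicate number deviated together weakly (r 0.149 to 0.309). With the replicate number as a block 636 genes were called higher (6.65%) and 553 lower (5.78%), which included all 78 and all 29. The 3 control IP libraries lay above all 3 input libraries for 1163 genes (12.2%) and below them for 1030 (10.8%). The number of calls rested on which libraries were in the fit, those of Roquin IP included. With only the 6 libraries compared, 2 of 9117 genes were called higher and 1 lower, or 138 and 88 with the block. It also rested on single libraries. With the block and without the 3 libraries of number 2, 4 genes were called higher and 1 lower, against 1199 and 1104 without number 1 and 89 and 138 without number 3. Without the block, no gene passed in either direction when input 1 was left out (896 higher and 733 lower at an unadjusted p under 0.05) or input 2 (963 and 756), and 2 and 1 passed without control IP 2. Omitting the first control IP library raised the counts to 185 and 86, and omitting the third lowered them to 20 and 5. Omitting input 3 gave 30 and 32, and dropping a Roquin IP library gave 36 and 7, 29 and 9, or 50 and 14. DESeq2 on all 9 libraries called 405 and 401. Depth moved with the group, every control IP library being deeper than every input library, and counts thinned to the smallest total gave 83 and 38 calls.

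The genes highest on the beads included several that encode small proteins of the mitochondrial inner membrane and of RNA assembly particles. Tmem160, which encodes a mitochondrial membrane protein, was at 24.7, 31.4 and 38.2 CPM in control IP 1, 2 and 3 and at 4.48, 4.35 and 2.98 CPM in input 1, 2 and 3. Every bead library was above every input library, with a log2 fold change of 2.98 (SE 0.40, edgeR adjusted p = 0.0166). Atp5g3, which encodes the membrane ring subunit of ATP synthase, was at 237.9, 312.2 and 597.8 CPM against 39.9, 80.3 and 108.1 (log2 2.33, adjusted p = 0.0259 by edgeR). Its groups did not overlap, and the fold was nearly even over the pairs, at 2.57, 1.96 and 2.47.

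Timm22, the channel of a translocase that inserts carrier proteins into the inner membrane, was at 37.2, 33.7 and 51.9 CPM on the beads and 7.33, 8.30 and 9.42 CPM in the lysate. Slc25a33, a mitochondrial carrier of pyrimidine nucleotides, was at 44.8, 45.7 and 76.8 CPM against 3.26, 16.2 and 10.4. Romo1, a small inner membrane protein that affects reactive oxygen, was at 35.3, 23.5 and 50.4 CPM against 2.04, 10.3 and 9.92. For Slc25a33 and Romo1 the lowest library was input 1, so the log2 difference was 3.71 and 4.00 in pair 1 but 1.48 and 1.18 in pair 2. All 3 genes passed edgeR (adjusted p from 0.0166 to 0.0471) with no overlap of the groups.

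Gemin7, a subunit of the SMN complex that loads Sm proteins onto spliceosomal small nuclear RNAs, was at 60.3, 38.4 and 66.7 CPM on the beads and at 2.85, 11.9 and 8.43 CPM in input. Lsm4, part of the ring that binds U6 small nuclear RNA and of the decapping machinery, was at 161.1, 105.4 and 195.7 CPM against 29.3, 28.9 and 32.2. The input libraries were close together for Lsm4, and its log2 fold change of 2.35 (SE 0.34, edgeR adjusted p = 0.0166) was called in 22 of 24 alternative analyses.

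The remaining high genes act in metabolism and signalling. Ppm1m, a protein phosphatase, was at 63.0, 56.0 and 50.9 CPM against 4.07, 12.7 and 13.4, and Pgp, the phosphoglycolate phosphatase that clears a side product of glycolysis, was at 22.2, 41.0 and 52.3 CPM against 8.14, 9.10 and 3.97. Ppap2c, a lipid phosphatase, was at 41.1, 49.8 and 29.6 CPM on the beads and at 0, 9.10 and 7.44 CPM in input, and the log2 differences in the pairs were 7.77, 2.43 and 1.96, the first against that empty library. Serinc2, a membrane protein gene, had 65 counts over the 3 control IP libraries and 0 over the 3 inputs, so it passed the read filter only through libraries other than input. With 3 counts taken as the limit for the whole input group, Serinc2 was at least 7.58-fold higher. Of the 78 genes, 3 were predicted loci and were not named.

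Genes lower on the beads included those of nuclear proteins of splicing, nucleolus and chromatin. Clk1, a kinase that phosphorylates SR splicing factors, was at 4.57, 12.9 and 9.97 CPM in control IP and at 31.8, 79.9 and 30.8 CPM in input. Every bead library lay below every input library, and the log2 fold change was -2.35 (SE 0.43, edgeR adjusted p = 0.0259). Esf1, a nucleolar protein needed for ribosomal RNA processing, was at 38.7, 38.6 and 41.9 CPM against 190.6, 251.5 and 102.7. The 3 bead libraries agreed closely for Esf1 while the inputs spread over more than 2-fold (log2 -2.19, SE 0.34, adjusted p = 0.0166 by edgeR).

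Hmgn5, a nucleosome-binding protein gene, was at 21.3, 15.5 and 25.9 CPM on the beads and at 63.1, 122.6 and 60.5 CPM in the lysate. The spliceosome factors Cwf19l2 and Crnkl1 were at 14.3, 20.4 and 23.2 CPM against 64.3, 97.3 and 49.6, and at 11.9, 13.3 and 16.3 against 53.8, 47.1 and 31.7. Mki67, a large protein that coats mitotic chromosomes, was at 270.4, 202.0 and 183.1 CPM against 816.9, 627.1 and 453.8. Groups did not overlap for any of these 4 genes, whose log2 fold changes ran from -1.97 to -1.53.

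Immune genes were also among the lowest. Samd9l, an interferon-induced restriction factor, was at 20.1, 24.9 and 20.5 CPM on the beads against 95.3, 104.4 and 51.6. Mndal, of the interferon-inducible p200 family, was at 17.4, 22.9 and 20.1 against 74.1, 85.8 and 43.2, and reads it shares with its family members cannot be assigned with certainty. Cd52, which encodes a short glycoprotein of the leukocyte surface, was at 52.1, 52.1 and 38.3 CPM against 167.0, 210.4 and 92.7 (log2 -1.73, edgeR adjusted p = 0.0319). Cd52 has a transcript of 514 bases and a GC content of 51.0%, while the other 11 of the 12 lowest genes lay between 1796 and 10061 bases and between 36.1 and 46.6%.

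Samsn1, an adaptor of immune cells, and Ddx3y, an RNA helicase gene, had log2 fold changes of -1.69 and -1.51. Ddx3y did not pass with the offset for GC content and length in each library, at -0.63 (edgeR adjusted p = 0.271), nor with block and offset, at -0.60 (edgeR adjusted p = 0.141). Ccdc45, a centrosomal protein gene, was at 0, 1.76 and 1.89 CPM against 30.1, 10.7 and 8.43, with control IP 1 empty. Replicate 3 gave the smallest difference of the 3 pairs for all 12 lowest named genes, Clk1 at -1.61 and Esf1 at -1.29 among them. All 37 named genes that passed without the block also passed with it, as did all 78 and 29 genes called, and none changed sign in any alternative. They were picked from these same libraries for being called, the 12 highest and 12 lowest also for the same sign in all 3 pairs. A kept sign is therefore no separate support. Of the 37, 2 remained called with only the 6 libraries in the fit and none without input 1 or without input 2.

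**Figure D1:**
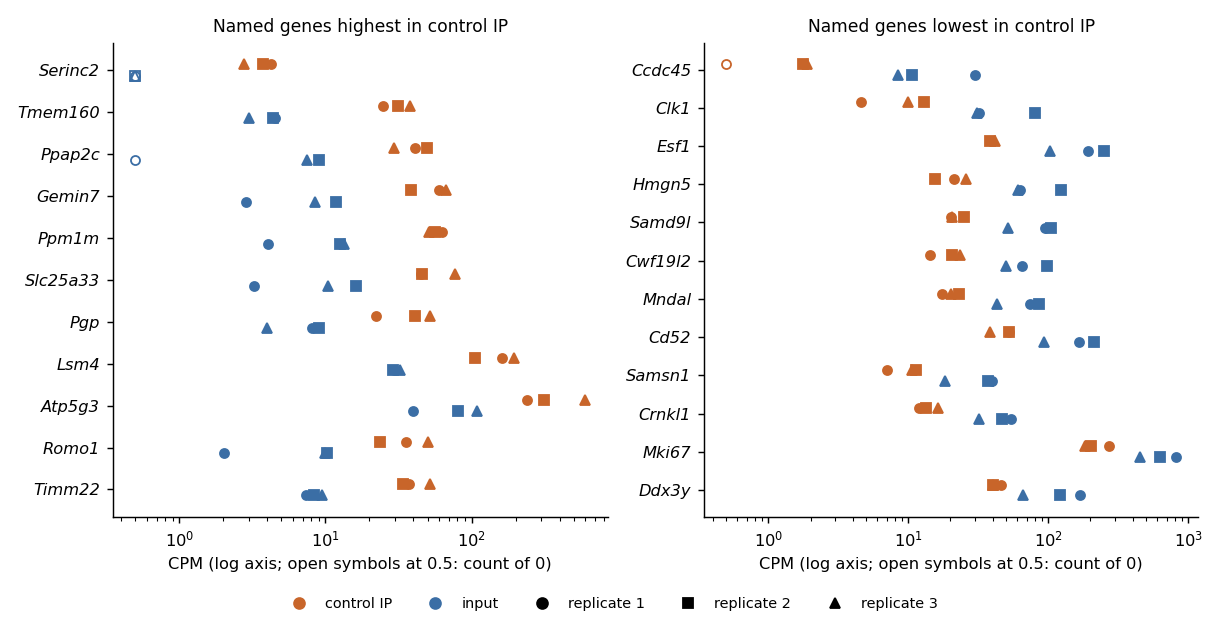
CPM (log axis) of 11 named genes with the largest and the 12 with the smallest log2 fold change, one symbol per library, control IP in orange and input in blue. The groups are separated for every gene plotted; open symbols drawn at 0.5 mark a count of 0, as in all 3 input libraries for Serinc2.

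The difference between beads and lysate followed GC content. The genes tested were divided into 5 equal classes (quintiles) by the GC content of the transcript, from 33.9 to 44.3% in the lowest to 55.7 to 70.0% in the highest. The median log2 fold change rose through the quintiles from -0.43 through -0.14, 0.03 and 0.24 to 0.41, against 0.02 over all genes tested. Of the 78 higher genes, 41 were in the GC-richest quintile and 1 in the poorest, and of the 29 lower genes, 21 were in the poorest. No gene of the 2 richest quintiles was called lower by edgeR without the block, where 39 and 6 passed with it, 72 and 19 at an unadjusted p under 0.05, and 27 and 5 with DESeq2. With the block, 263 genes of the richest quintile were higher (13.8%) and 6 lower (0.316%), while 22 of the poorest quintile were higher (1.16%) and 314 lower (16.5%). The order held in each pair: from poorest to richest quintile the median difference ran from -0.43 to 0.46 in pair 1, from -0.66 to 0.62 in pair 2 and from -0.23 to 0.26 in pair 3.

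**Figure D2:**
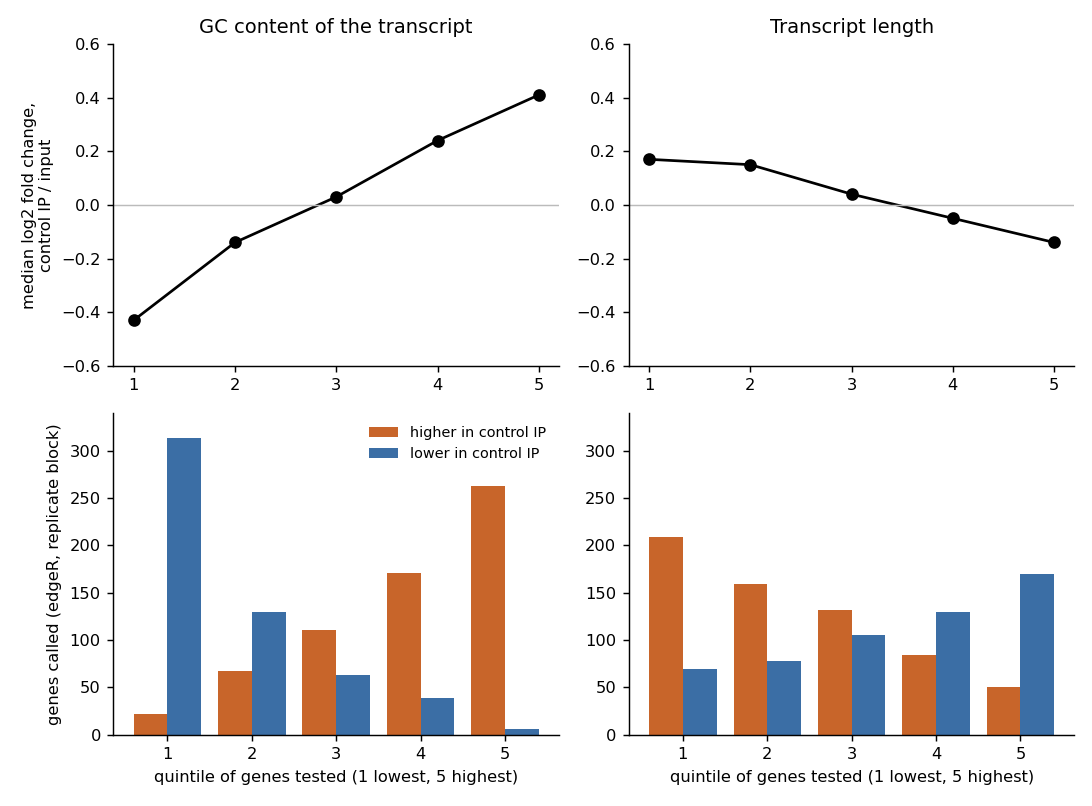
Median log2 fold change of control IP over input (top) and genes called with the replicate block (bottom) in quintiles of the genes tested by GC content (left) and by transcript length (right). The median climbs from -0.43 to 0.41 along GC content, and falls from 0.17 to -0.14 along length.

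The same contrast was taken library by library, so that libraries and not genes were the replicates. In each library the median log2 CPM of the GC-richest quintile was set against that of the poorest. These levels are not per length, so only the comparison between libraries is read. The richest quintile was below the poorest by a log2 difference of -0.60, -0.38 and -0.62 in control IP 1, 2 and 3, and of -1.47, -1.64 and -1.08 in input 1, 2 and 3. All bead libraries thus had relatively more reads of GC-rich mRNA than any input library. The difference of the means was 0.86 (0.86, 1.27 and 0.47 in pairs 1, 2 and 3). A two-sided exact permutation test gave p = 0.1, the smallest that 3 against 3 libraries allow, and 0.3 when adjusted over the 5 properties examined. The Roquin IP libraries, which also passed over beads, stood at -0.74, -0.92 and -0.73, between the 2 groups. Whether library preparation affected the RNA of the groups alike was not tested.

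The coding sequence and the 3' UTR gave like values when taken alone. The difference between control IP and input was 0.86 by the GC content of the coding sequence and 0.71 by that of the 3' UTR, and the groups did not overlap in either. These 2 measures were added after the data were seen.

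**Figure D3:**
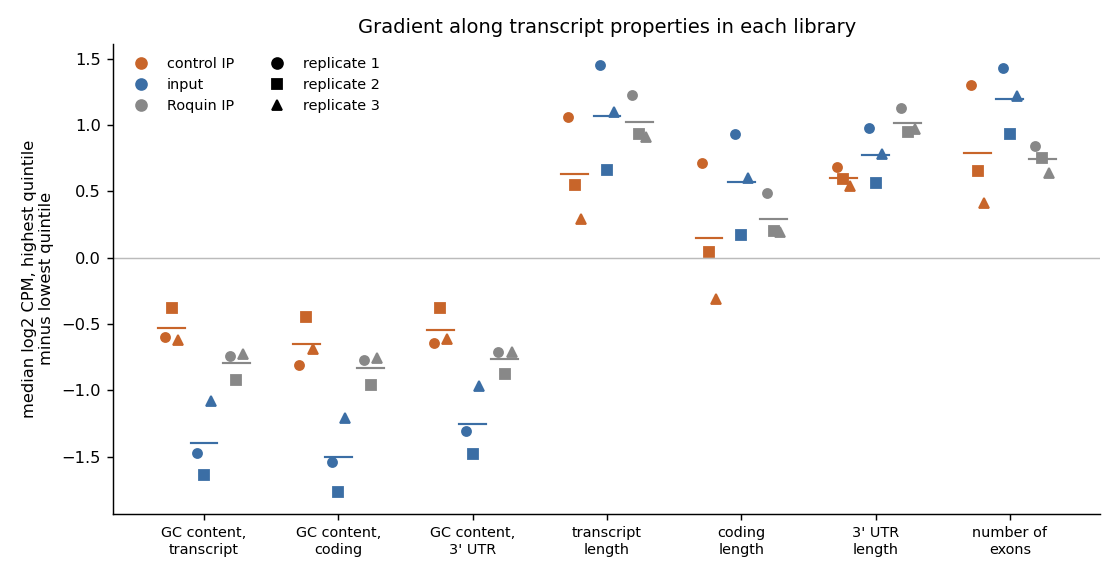
Median log2 CPM of the highest quintile of genes minus that of the lowest quintile, for 7 transcript properties, in each library (symbol shape: replicate; line: group mean). For the 3 measures of GC content the control IP libraries lie above all input libraries, while for length and exon number the groups overlap.

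Long transcripts were lower on the beads in each of the 3 pairs, but the groups overlapped. By transcript length, the longest quintile minus the shortest gave 1.06, 0.55 and 0.29 in control IP and 1.45, 0.66 and 1.10 in input, a difference of -0.43 (exact permutation p = 0.2, adjusted 0.3) and pair differences of -0.39, -0.11 and -0.81. With 3 pairs an exact sign-flip test cannot go below p = 0.25. Differences by coding length, 3' UTR length and number of exons were -0.42, -0.17 and -0.41, each with p = 0.3 by the same exact test and with overlapping groups. Coding length and number of exons were also negative in all 3 pairs, and 3' UTR length in pairs 1 and 3, at -0.30 and -0.25 against 0.03 in pair 2. Genes called higher had a median transcript length of 2107 bases and genes called lower 4417, against 3021 for all genes tested. Their median GC contents were 56.0%, 42.7% and 50%.

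GC-poor transcripts tend to be long, so each property was examined within quintiles of the other. Within quintiles of length, from shortest to longest, the GC difference between control IP and input was 0.95, 0.76, 0.69, 0.81 and 0.73, and the groups overlapped in none. Within quintiles of GC content, from poorest to richest, the length difference was -0.02, -0.07, -0.22, -0.31 and -0.42, and the groups overlapped in all 5. Short GC-rich mRNAs had the highest median, 0.54 over 566 genes, of which 115 were called higher and 3 lower with the block. Long GC-poor mRNAs had a median of -0.43 over 584 genes, with 3 higher and 121 lower. This second division was also added after the data were seen.

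**Figure D4:**
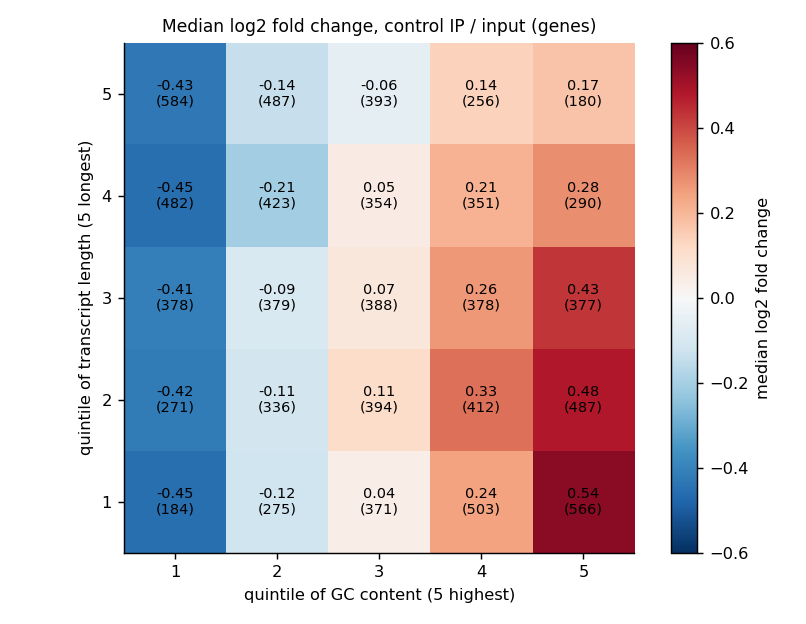
Median log2 fold change of control IP over input in 25 classes of genes, by quintile of GC content (horizontal) and of transcript length (vertical), with the number of genes in parentheses. Every row changes from blue (lower on the beads) to red (higher); from bottom to top the GC-richest column falls from 0.54 to 0.17, while the GC-poorest stays between -0.45 and -0.41.

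An offset for GC content and length, fitted in each library, removed this gradient by construction and left 68 genes higher and 28 lower, or 514 and 351 with the block. Of the genes called with the block, 362 of 636 higher and 242 of 553 lower were also called with block and offset. Of the 37 named genes that passed, 22 passed with the offset alone, and those that did not included Eif5b, Fars2, Cwf19l2, Mphosph10, Jund, Samd9l, Zfp266, Xrn2, Serinc2, Ppap2c, Romo1, Mndal, Samsn1 and Ddx3y. With block and offset Zfp266 and Ddx3y did not pass. Tmem160, with a GC content of 64.2%, went from a log2 fold change of 2.98 to 2.23, and Esf1, at 39.0%, from -2.19 to -1.53. Timm22 (49.7%) and Atp5g3 (50.5%), near the average in composition, were at 2.28 and 2.27 with the offset against 2.30 and 2.33.

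The classes of mRNA were described by lists of genes, each by its median log2 fold change and its calls, first without and then with the block, to be read against 0.815% higher and 0.303% lower, and 6.65% and 5.78% with the block. Of 3 lists of mitochondrial mRNAs encoded in the nucleus, carriers and import was the one with a positive median in every pair. Of 43 genes of carriers and protein import into mitochondria, 36 had a positive difference and the median was 0.50 (0.26 to 0.45 in the 3 pairs). Slc25a33, Timm22, Timm13 and Slc25a11 were higher, and with the block 9 were higher and 0 lower (0 at an unadjusted p under 0.05 without it and 0 with DESeq2), among them the citrate carrier Slc25a1 and the import channel Tomm40. The median was 0.44 with the GC and length offset, and the list's median GC content was 49.8%.

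Oxidative phosphorylation genes encoded in the nucleus had a median of 0.24 over 77 genes, with 54 positive. Of these, 2 were higher, Atp5g3 among them, and with the block 13 were higher and 6 lower. Pair 2 went the other way for this list, with a median of -0.24 against 0.53 and 0.50 in pairs 1 and 3. The 76 mitochondrial ribosomal proteins had a median of 0.18, and none passed without the block (9 higher and 4 lower at an unadjusted p under 0.05, 4 and 1 with DESeq2), while 8 were higher and 2 lower with it. Their pair medians were 0.33, -0.13 and 0.31, and the median was 0.07 with the offset. Mitochondrially encoded RNAs were not analysed here.

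Cytosolic ribosomal proteins differed between the pairs. The 47 large subunit genes are short (median 906 bases) and of average GC content (51.9%), yet 38 were negative and their median was -0.42, or -0.57 with the offset. None passed without the block (2 higher and 12 lower at an unadjusted p under 0.05, 0 and 7 with DESeq2). With the block Rpl13a was higher and Rpl36a, Rpl21, Rpl26, Rpl31 and Rpl19 were lower, and 14 were lower with the block and the offset. The list rested on pair 2, with a median of -1.05, against -0.16 and 0.07 in pairs 1 and 3, and its summed level was 12950 CPM in input 2 against 7086 to 8805 in the other 5 libraries.

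The 33 small subunit genes had a median of -0.23, with 0.39, -0.85 and 0.26 in the pairs. None passed without the block (2 higher and 3 lower at an unadjusted p under 0.05, 2 and 1 with DESeq2), and with it 2 were higher and 3 lower. Rps9, a small subunit gene, was at 871.9, 556.7 and 707.2 CPM on the beads against 257.0, 384.3 and 329.3 (log2 1.14, edgeR adjusted p = 0.0639, and 0.0142 with the block). Reads of ribosomal protein genes and their many processed pseudogenes cannot be assigned with certainty.

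Factors that act on ribosomes and tRNAs lay near or below the average. Among 50 initiation and elongation factors the median was -0.18. Eif5b, a GTPase that joins the ribosomal subunits, was lower at 65.2, 58.0 and 64.9 CPM against 128.3, 130.9 and 175.6 (log2 -1.21, edgeR adjusted p = 0.0430), and with the block 4 were higher and 7 lower. Of 36 aminoacyl-tRNA synthetases, Fars2, the mitochondrial phenylalanine enzyme, was higher at 39.9, 26.1 and 18.0 CPM against 6.11, 8.70 and 9.42. With the block it remained the 1 higher gene of that list and 5 cytosolic enzymes (Tars, Rars, Dars, Lars and Nars) were lower.

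Nucleolar ribosome assembly had the most lower calls with the block by number, on one of the longer lists. By share, 2 shorter lists were above it, with 11 of 34 SR proteins and CLK kinases and 8 of 28 macrophage genes lower. Of the 80 nucleolar genes 57 were negative, with a median of -0.42 and pair medians of -0.30, -0.53 and -0.48. Esf1 and Mphosph10 were lower, and with the block 20 were lower, against a background of 5.78%, and Imp3 alone was higher. Krr1, Ncl, Dkc1, Nop14 and Utp20, all factors of early ribosomal RNA maturation, were among the 20. The list's summed level was 5849 to 7980 CPM in control IP and 8712 to 11680 in input, with no overlap. The median stayed at -0.43 with the offset, and 17 were lower with block and offset, 13 of them among the 20.

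Splicing genes were taken as separate lists by class. Among 36 core proteins of small nuclear ribonucleoproteins and the SMN complex the median was 0.02, and Gemin7, Lsm4 and Snrnp25 were higher. With the block 5 were higher and 0 lower (2 lower at an unadjusted p under 0.05 without it, 0 with DESeq2). Of 34 SR proteins and CLK kinases, 29 were negative with a median of -0.50, which was -0.61, -0.45 and -0.46 in the pairs. Clk1 was lower and Srsf9 higher, and with the block 11 were lower and 2 higher.

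Srsf9, a short SR protein gene, was at 109.0, 125.2 and 153.5 CPM against 26.9, 44.3 and 50.1 (log2 1.68, edgeR adjusted p = 0.0268). Its GC content was 56.2%, against a list median of 44.4%. The 51 spliceosome factors had a median of -0.35: Cwf19l2, Crnkl1 and Cwc15 were lower and Bcas2 higher, and with the block 12 were lower and 3 higher. Bcas2, a subunit of the complex that activates the spliceosome, was at 133.4, 143.1 and 226.2 CPM against 54.6, 74.7 and 54.1, although its GC content was only 45.3%.

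Chromatin remodelling and nucleosome-binding genes had a median of -0.43 over 49, with Hmgn5 lower, and with the block 12 lower, among them Atrx, Chd1, Smarca5 and Bptf, and Hmgn1 higher. Replication-dependent histones, which are short and GC-rich (median 534 bases and 58.6%), had a median of 0.20, or -0.01 with the offset. None of 59 passed without the block (10 higher and 0 lower at an unadjusted p under 0.05, 4 and 0 with DESeq2), and with it 8 were higher and 0 lower. The pair medians were 0.74, -0.14 and 0.47, and 8 were higher and 2 lower with block and offset. All 8 called with the block were H4 or H2A genes, whose near-identical copies share reads, and the values of single copies are uncertain. The 39 genes of RNA polymerase II and its general factors had a median of 0.02, and none passed without the block (2 and 3 at an unadjusted p under 0.05, 0 and 1 with DESeq2), while 2 were higher and 1 lower with it.

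Genes of large coiled-coil and centrosomal proteins had the lowest median of all lists, -0.52 over 51 genes. None passed without the block (0 higher and 13 lower at an unadjusted p under 0.05, 0 and 7 with DESeq2), and with it 10 were lower, among them Ktn1, Cep290, Gcc2 and Eea1. The median was -0.23 with the offset, and 1 was lower with block and offset, which was not among the 10. Pair 1 differed from the others, with a median of -0.02 against -1.0 and -0.68. Cenpe, a kinesin of the centromere, was at 1060 CPM in control IP 1 against 64.1 and 72.1 in control IP 2 and 3 and 94.2 to 185.3 in input.

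Zinc-finger genes with Zfp symbols, many of which are transcriptional repressors, were also on the lysate side. Of 197 tested, 130 were negative with a median of -0.35, and Zfp266 was lower and Zfp740 higher, while with the block 16 were lower and 2 higher. Their median GC content was 44.2%. The median was -0.10 with the offset, and with block and offset 2 were lower and 4 higher.

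Cell cycle genes had a median of -0.14 over 58. E2f1, the transcription factor that drives entry into S phase, was higher at 65.5, 82.9 and 65.6 CPM against 8.14, 19.0 and 26.3 (log2 2.01, edgeR adjusted p = 0.0268), and Mki67 was lower. With the block 6 were higher and 5 lower. The higher ones, besides E2f1, were Cks1b, Ccnd3, Cdc25b, Cenpa and Cdk4, and the lower ones, besides Mki67, were Kif4, Tpx2, Rrm1 and Mcm4.

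Proteasome genes had a median of 0.05 over 45, with none passing (7 higher and 2 lower at an unadjusted p under 0.05, 3 and 2 with DESeq2) and 8 higher and 2 lower with the block. Genes of ER translocation and folding had a median of -0.13 over 52, with none passing (4 and 8 at an unadjusted p under 0.05, 2 and 4 with DESeq2) and 4 higher and 8 lower with the block, the chaperones Hspa5, Hsp90b1, Calr and Canx among the lower. Lysosomal genes had a median of -0.17 over 48, with pair medians of -0.60, -0.07 and 0.02. Atp6v0b, a membrane subunit of the proton pump, was higher at 109.3, 147.6 and 228.4 CPM against 42.8, 39.5 and 35.2, and with the block it remained the 1 higher gene, while 5 were lower, Tpp1, Ctsa, Cd68 and Ppt1 among them. Of 41 glycolytic and cytoskeletal genes, with a median of 0.03, Arpc4, a subunit of the actin-nucleating Arp2/3 complex, was higher at 276.2, 398.8 and 479.5 CPM against 120.5, 147.9 and 178.0, and with the block 5 were higher and 2 lower.

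Lists of genes of the LPS response differed in their medians. All libraries had LPS, so induction itself was not measured. Immediate early genes and other short-lived regulators had a median of 0.37 over 60, with 47 positive and a median GC content of 55.4%. Jund, an AP-1 subunit, was higher at 338.7, 357.8 and 262.1 CPM against 112.8, 78.7 and 92.2 (log2 1.76, edgeR adjusted p = 0.0166). With the offset Jund did not pass (log2 0.86, edgeR adjusted p = 0.223). With the block Pim3, Dusp1, Dusp2, Dusp5, Nfkbia and Btg2 were higher too, and Id2, Ptgs2 and Rel were lower. The median was 0.08 with the offset.

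Interferon-response genes were on the other side, with a median of -0.48 over 46 and 38 negative. Samd9l was lower, and with the block 10 were lower and 0 higher (0 higher at an unadjusted p under 0.05 without it and 0 with DESeq2), among them Ifit1, Ifit2, Ifih1 and Eif2ak2. The pair medians were -0.39, -0.67 and -0.57, and the median was -0.50 with the offset, but 4 of the 10 remained lower with block and offset, and no other gene of the list was.

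Of 38 cytokine and chemokine genes 27 were tested, with a median of -0.27, and none passed without the block (0 higher and 6 lower at an unadjusted p under 0.05, 0 and 2 with DESeq2). With the block Ccl3, Ccl5, Ccl9, Ccl22, Il1b and Spp1 were lower. The pair medians were 0.35, -0.46 and -0.37, and the median was -0.13 with the offset. Ccl3, a chemokine gene, was at 1613, 1782 and 1085 CPM on the beads against 2956, 4043 and 1852 (log2 -0.98, edgeR adjusted p = 0.148, and 0.00922 with the block). Tnf, the main macrophage cytokine gene and a Roquin target, was at 2339, 1761 and 1043 CPM against 1841, 1635 and 4601, and the groups overlapped, with input 3 far above the rest.

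Reported targets of Roquin were also examined on beads alone, and several of them were reported from these same samples. The 12 tested of 17 had a median of -0.35, with pair medians of 0.00, 0.33 and -0.60, and none passed without the block (1 higher and 2 lower at an unadjusted p under 0.05, 1 and 1 with DESeq2). With the block Pim3 was higher and Ptgs2 and Rel were lower, and no other of the 12 was called. Over all genes tested the shares were 6.65% and 5.78%, so calls this few are not read as a trait of the targets. Nfkbiz, an inducible NF-kappaB regulator, was at 816.2, 795.8 and 568.0 CPM against 764.0, 642.6 and 671.0. The authors' deposited prediction classes for the CDE (constitutive decay element, a stem-loop that Roquin binds) gave medians of 0.05 over 37 genes with a conserved CDE in the 3' UTR, -0.11 over 38 with one not conserved, -0.14 over 55 with one in the open reading frame and 0.02 over 9437 with none. With the block 1 was higher and 2 lower in the first class, 3 and 3 in the second and 2 and 6 in the third.

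Decay factors were near or below the average. Of 26 deadenylation and decapping genes, with a median of -0.24, Xrn2, a nuclear exonuclease, was lower at 64.3, 58.6 and 68.6 CPM against 147.0, 158.6 and 135.4 (log2 -1.20, edgeR adjusted p = 0.0342). With the block Cnot4 was also lower and Cnot8 higher. Of 18 factors of nonsense-mediated decay, with a median of -0.13, none passed without the block (0 higher and 3 lower at an unadjusted p under 0.05, 0 and 2 with DESeq2), and Upf3b and Smg6 were lower with it.

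The macrophage label was checked in the same libraries. Cd14, Cd68, Csf1r, Emr1, Itgam, Lyz2, Mpeg1 and Sfpi1, the gene of the macrophage transcription factor PU.1, had reads in all 6 libraries, Fcgr1 had 0 in control IP 1, and Aif1 had 0 to 12 counts. Of 33 macrophage genes 28 were tested, with a median of -0.47 (-0.48 with the offset), and none passed without the block (2 higher and 9 lower at an unadjusted p under 0.05, 1 and 5 with DESeq2). With the block Itgam, Mpeg1, Cd68, Msr1, Cybb, Ptprc, Clec4e and Fcer1g, which encode surface receptors, a pore-forming protein, a lysosomal protein and an oxidase subunit, were lower and Cebpb was higher. Their summed level was 2393 to 3464 CPM in control IP and 2869 to 4340 in input, and the groups overlapped. Of 14 lymphocyte markers 9 were at 0 in all 6 libraries and Lck alone was tested, at 1.03 to 11.0 CPM. Of 14 fibroblast, epithelial and endothelial markers none had enough reads to test, and their summed level was at most 1.98 CPM.

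**Figure D5:**
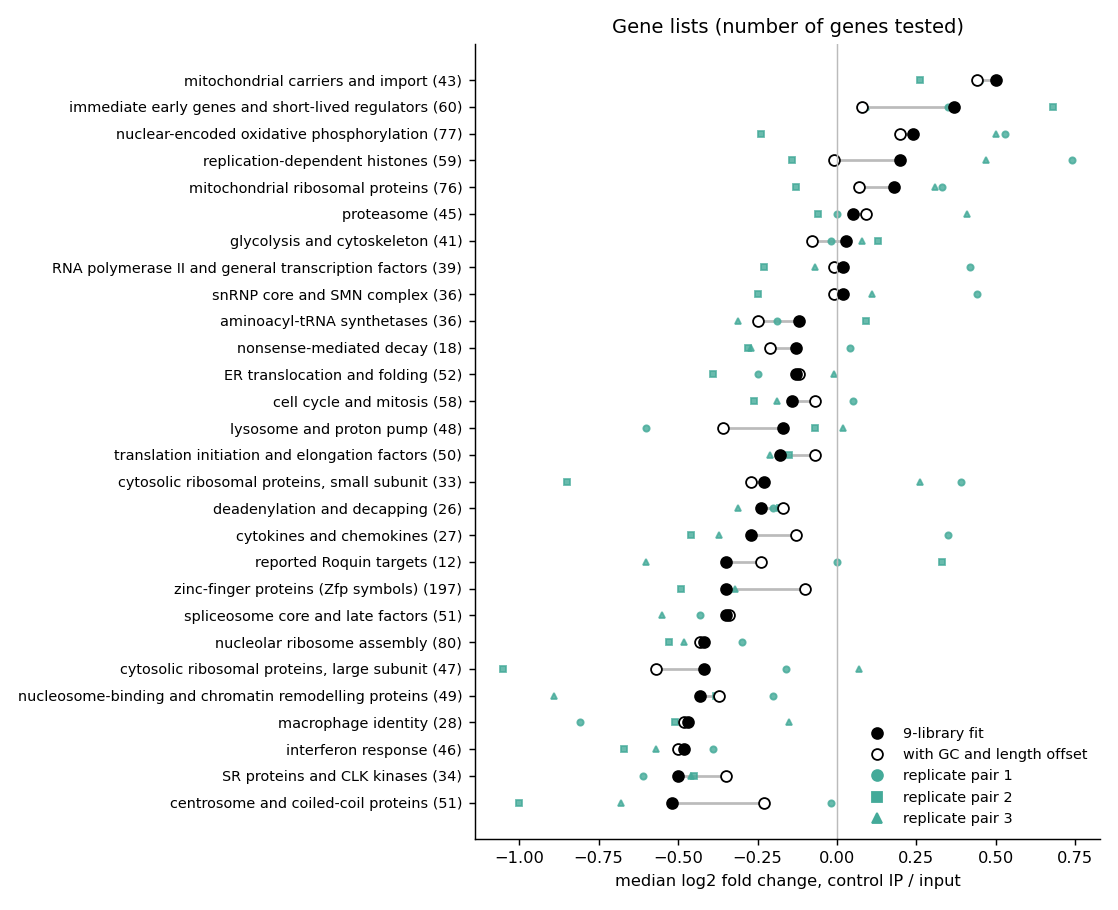
Median log2 fold change of control IP over input for 28 gene lists with at least 10 genes tested: filled circles, fit of 9 libraries; open circles, with the offset for GC content and transcript length; small symbols, the 3 replicate pairs. Mitochondrial carriers lie highest (0.50) and coiled-coil proteins lowest (-0.52); the offset moves histones from 0.20 to -0.01 and zinc-finger genes from -0.35 to -0.10, and leaves nucleolar genes at -0.43.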

How the data were processed

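RNA-seq was made from 3 control IP, 3 input and 3 Roquin IP libraries with the TruSeq RNA kit, per the labels' protocols. The values are raw counts per gene deposited by the authors, whole numbers that sum to 1799390 to 12975767 per library. Per the submitters' processing notes, the tools were CASAVA 1.8.2, BWA and DESeq 1.8.3. The sources used here name no build, annotation or strand setting. The 7480 rows without a symbol were left out. Reads of near-identical copies and of overlapping or antisense genes cannot be assigned with certainty.

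Genes were kept by filterByExpr (minimum count 10) and fitted with edgeR 4.0.16 (TMM factors, quasi-likelihood F test, all 9 libraries, adjusted p under 0.05). The 9-library fit had a biological coefficient of variation of 0.35. Libraries of equal number, as given in the titles, deviated together weakly (r 0.160, 0.149 and 0.309), so values with the number as a block stand beside the others. Between unequal numbers r was -0.215 to -0.021. Deviations were taken from each group's mean, so positive values for equal numbers push those for unequal numbers to be negative, and the contrast is no separate evidence. DESeq2 1.42.0, other scalings, filters, thinning, left-out libraries and an offset for GC content and length (natural splines with 4 degrees of freedom per library) were alternatives. The 9-library fit without the block was run on simulated counts with a common spread and no effect of the replicate number. The fits with block or offset and DESeq2 were not run on simulated counts.

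Transcript properties came from GENCODE M21 (GRCm38), with 9499 genes (99.3%) matched, 8772 by symbol and 727 by RefSeq synonym. The median log2 CPM (prior count 1) of the highest quintile of genes minus that of the lowest was compared between libraries by exact permutation. Named genes were the 12 highest and 12 lowest called genes with the same sign in all 3 pairs, up to 2 per list and direction (where none was called, the 2 of highest level), and the 5 genes with the largest share of counts. Some genes that this rule names are not reported here. The comparison and the lists were chosen with earlier results of these data known. The replicates are called biological, but p-values measure only the spread between these libraries.

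Nuclear noncoding RNAs and mitochondrially encoded RNAs were not analysed here, and of the snoRNA host genes 1 was tested and not called (log2 fold change -0.39).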

Additional observations from a re-analysis of the deposited data

How the results depend on the processing

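The direction of each called named gene was kept in all alternatives run, which the choice of these genes from the same libraries favours. The counts of calls were not stable. Against 78 higher and 29 lower genes, the fit of the 6 libraries alone gave 2 and 1, the replicate block 636 and 553, the replicate block on the 6 libraries 138 and 88, DESeq2 405 and 401, no filter beyond 1 count 335 and 229, a minimum count of 50 165 and 98, and the replicate block with the GC and length offset 514 and 351. Library size alone gave 57 and 10 and moved the median of all genes from 0.02 to 0.11, so the split between directions went toward higher genes. RLE factors gave 74 and 41, TMM without Lars2 70 and 29, thinning 83 and 38 and the offset without the block 68 and 28. Leaving out 1 library gave 0 to 185 higher and 0 to 86 lower genes. The block was also fitted without all libraries of number 1, 2 or 3, chosen after seeing the data. The counts were then 1199, 4 and 89 higher and 1104, 1 and 138 lower. Fewer libraries lower the power of a test, and each of these fits left out 3. Why their counts differ was not tested. Of 37 named genes that passed, 37 passed with the block, 36 with DESeq2, 22 with the offset and 35 with block and offset. Cenpe, not called, went from 1.36 to -0.95 with the block and without number 1; control IP 1 holds its high value. The difference by GC content of the transcript ran from 0.74 to 1.02 over its alternatives, with 0.86 under the replicate block (exact sign-flip p = 0.25, the smallest 3 pairs allow), and no property changed direction. List medians changed sign in 32 of 672 values. Input depth, 1799390 to 2122288 counts, limits genes below 1.19 to 1.49 CPM, where a count of 0 cannot be told from low expression.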

Other observations

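Some genes had reads in 1 of the 2 groups only. With at least 10 counts over the 3 libraries, 74 genes had reads in control IP and 0 in all input libraries, and 22 had reads in input and 0 in all control IP libraries. With at least 30 counts these were 8 and 1. The control IP libraries were deeper, so the counts in the 2 directions are not comparable.

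The difference between beads and lysate was also set against the level of a gene. In quintiles of the mean CPM over the 6 libraries, from lowest to highest, the median log2 fold change was 0.11, 0.04, 0.07, 0.01 and -0.07, and the median GC content was 52.1, 51.0, 50, 48.8 and 48.4%. Calls with the block rose from 33 higher and 9 lower of 1913 genes in the lowest quintile to 169 and 252 of 1914 in the highest. Over all genes tested the shares were 6.65% and 5.78%. The power of a test differs with the reads of a gene, so the counts of calls in these quintiles are not comparable.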
